A study of Mus musculus with 8 samples.

Results

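The semaphorins, plexins, neuropilins, netrins, UNC5 and DCC family receptors, Slits and Robos are secreted or membrane-bound guidance molecules and their receptors. The 49 mouse genes described here were listed by name, 29 ligands and 20 receptors of the 21951 protein-coding genes in the GENCODE M21 annotation. An ATAC-seq peak was counted for a gene when the nearest protein-coding transcription start site (TSS) was a TSS of that gene, or when the peak lay within 10 kb of the gene body. This rule gave 131 of the 15736 listed peaks to the 49 genes, and no peak was shared by a pair of them.

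The peaks came from hearts of mouse embryos at E10.5, compared between wild type (WT) and *Chd4-CMko*, with 4 samples per genotype. CHD4 is the ATP-dependent remodeller of the NuRD complex. *Chd4-CMko* embryos carried floxed *Chd4* alleles deleted by *Tnnt2* Cre, a driver active in cardiomyocytes, so that other cells of the heart kept the gene, and control littermates served as WT. Each sample pooled several hearts, 4 per the extraction notes and 3 per the series' design text and the study's methods, from which 40000 viable cells were taken. The data were a pair of lists, 12991 peaks higher in *Chd4-CMko* (gained) and 2745 peaks higher in WT (lost), each with a deposited score and no value per sample. Replicate error, depth per sample and a test between genotypes could therefore not be had, and 95% intervals given for shares (Wilson) or differences of shares (Newcombe) cover counting error only. Scores were ranked within a list, since a common scale for the lists is not stated. In whole hearts, a site open in fewer cells and a site less open per cell cannot be told apart.

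Class 3 semaphorins are secreted and signal through holoreceptors of a neuropilin, which binds the ligand, and an A-type plexin, whose intracellular domain acts on small GTPases, whereas Sema3e binds *Plxnd1* directly. Class 4 to 7 semaphorins are mostly membrane-bound and bind plexins without a neuropilin. Netrins attract through DCC and neogenin and repel through UNC5 receptors, and Slits repel through Robo receptors. In the heart these pathways are known for outflow tract septation and cardiac innervation (semaphorins, neuropilins and *Plxnd1*) and for the shaping of chambers, valves and veins (Slits and Robos).

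Gained peaks were widespread among the guidance genes. At least 1 gained peak was found for 42 of the 49 genes (85.7%, interval 73.3 to 92.9), against 37.4% of all protein-coding genes under the same rule. The 49 genes held 113 gained peaks, a median of 2 and a mean of 2.31 per gene, where all protein-coding genes had a median of 0 and a mean of 0.722. Of the genes, 16 had 3 or more gained peaks (32.7%), against a background of 7.81%. Counted within 10 kb of the gene body alone, 9 did (18.4%, against 4.25%). Lost peaks numbered 18 and belonged to 11 genes (22.4%), with a background of 10.8%. Both kinds were found for 9 genes (18.4%, background 6.36%). *Dcc* and *Sema6a* had lost peaks without a gained peak (2 of 49, near the background of 4.41%), and *Sema3c*, *Sema4c*, *Sema6c*, *Plxnb3* and *Ntn4* had neither. The gained share of the peaks was 86.3% (79.3 to 91.1), and differed from the 82.5% of all other listed peaks by 3.73 points, a difference whose interval ran from -3.23 to 8.64. The genes thus exceeded the background in peaks per gene, while the balance of gained to lost peaks was not distinguishable from that of the other genes. The 49 genes were chosen with earlier results of these data known, so the excess is a description and not an independent test.

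**Figure D1:**
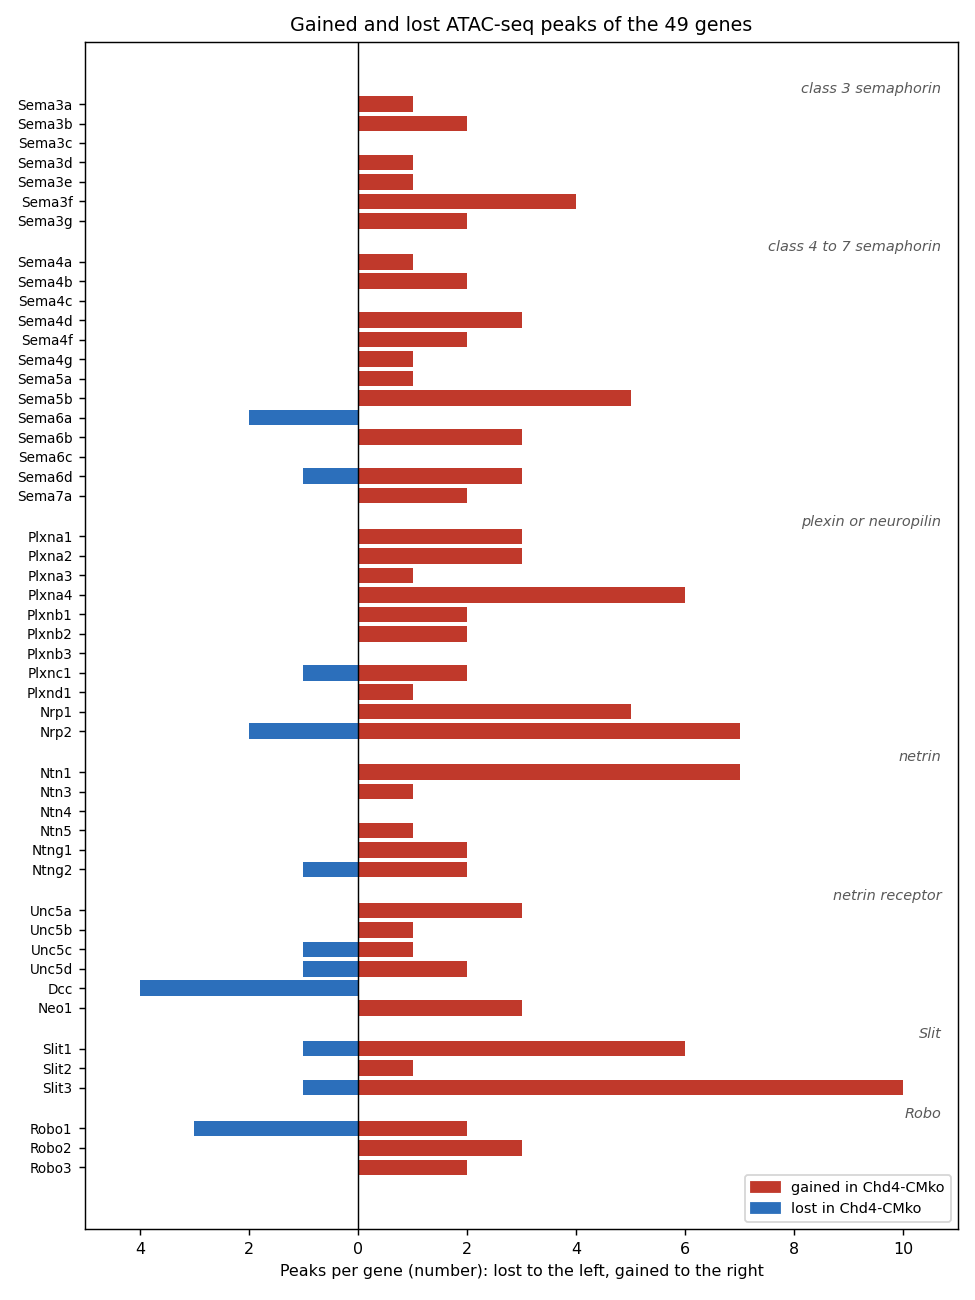
Bars give the number of gained peaks (to the right) and lost peaks (to the left) of each of the 49 genes, grouped by family, from lists with no value per sample. *Slit3* has the longest gained bar with 10 peaks and *Dcc* the longest lost bar with 4, and 5 genes have no bar.

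Many of these genes are long, and long genes collect more peaks. The median gene body was 108 kb, against 17.4 kb for all protein-coding genes, and 26 of the 49 genes reached 100 kb. Among genes under 100 kb, 20 of 23 guidance genes had a gained peak (87.0%), against 33.4% of the 19459 protein-coding genes of that length. At 100 kb or more the figures lay closer, 22 of 26 (84.6%) against 68.5%. In the class of 20 to under 50 kb all 9 guidance genes had a gained peak, with 2.11 per gene against 0.651. At 100 to under 200 kb the mean was 3.42 per guidance gene and 1.59 per protein-coding gene, and at 200 kb or more it was 2.43 and 2.57. Counted by area, within the gene body and 10 kb to either side, the guidance genes of 100 kb or more together had 5.53 gained and 1.19 lost peaks per Mb, and all protein-coding genes of that length 5.51 and 1.64. The guidance genes under 100 kb had 28.1 gained and 0.936 lost peaks per Mb, and all protein-coding genes of that length 8.24 and 1.17. Single long genes ranged widely, from 36.7 gained peaks per Mb in *Slit1* and 33.1 in *Ntn1* to 2.64 in *Robo1* and 0 in *Dcc*. Lost peaks followed length more closely, with 10 of 26 long guidance genes (38.5%) against 36.5% of long protein-coding genes and 1 of 23 short ones (4.35%) against 7.47%. The count of genes with a lost peak was therefore near the background once length was taken into account. When a peak was counted only for the gene with the nearest TSS, the short genes with a gained peak numbered 16 of 23 (69.6%), against 26.9%.

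**Figure D2:**
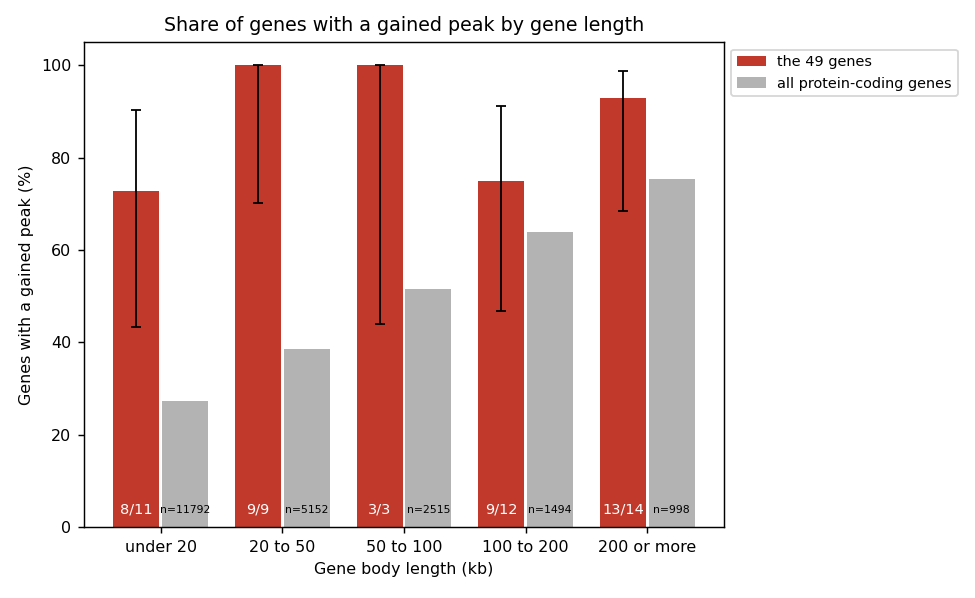
Bars give the percentage of genes with a gained peak by gene body length, red for the 49 genes (count over number of genes in white, error bars Wilson 95% intervals) and grey for all protein-coding genes (n below). The red bar is above the grey one in all 5 classes, and the interval includes the grey value in the classes from 50 kb upward.

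At 14 of the 49 genes (28.6%) the gene's own TSS had a gained peak no more than 3 kb away, against 12.4% of all protein-coding genes. The difference lay in the shorter genes, 9 of 23 under 100 kb (39.1%, against 11.3% of protein-coding genes of that length), while 5 of 26 longer ones (19.2%) stood beside 20.4%. Guidance genes have more annotated TSSs, a median of 5 against 3. With the 5′ end of the gene in place of every TSS, an alternative chosen after the data were seen, the count was 8 genes (16.3%, background 8.19%). They were *Sema3b*, *Sema4f*, *Sema6b*, *Plxna3*, *Ntn1*, *Ntng1*, *Unc5a* and *Neo1*. No gene had a lost peak within 3 kb of its TSS (0 of 49, upper limit 7.27%), and the background of 1.24% was itself low. The lost peak closest to a TSS of its gene was 10532 bp away, in *Unc5c*.

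The highest score of the 113 gained peaks stood at the promoter of *Neo1*, which encodes neogenin, the DCC-related receptor for netrins and repulsive guidance molecules. That peak scored 567, rank 11 of 12991, and lay 48 bp upstream of the 5′ end of the gene. The promoter peak of *Unc5a*, a repulsive netrin receptor, scored 223.5 (rank 830) and lay 75 bp upstream of the TSS. A peak of *Ntn1*, the secreted ligand of both, lay 766 bp downstream of the 5′ end with a score of 118. A peak 227 bp downstream of an internal TSS of *Ntng1*, a membrane-anchored netrin-G, scored 77.5 and was 1234 bp from the 5′ end. *Sema6b*, a transmembrane ligand of A-type plexins, had a peak 119 bp upstream of an internal TSS (score 220.5) and another 1907 bp upstream of its 5′ end (score 92.5). In *Sema3f*, a secreted ligand of *Nrp2*, the peak lay 820 bp upstream of an internal TSS with a score of 70.5. These 6 peaks are printed from the plus strand of GRCm38 (mm10), those of *Neo1*, *Unc5a*, *Ntn1* and *Ntng1* for their GC content of 76.2 to 80.8%, that of *Sema6b* for its score and that of *Sema3f* for its MEF2 match. Capitals mark matches, on either strand, to the GC box (GGGCGG), the NFY motif (CCAAT) or the MEF2 motif, 3 of the 10 motifs counted below.
Neo1, chr9:59036489-59036639: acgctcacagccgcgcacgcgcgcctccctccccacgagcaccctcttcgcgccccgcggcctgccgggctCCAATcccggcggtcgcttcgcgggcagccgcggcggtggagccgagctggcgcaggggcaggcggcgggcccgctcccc
Unc5a, chr13:54949186-54949336: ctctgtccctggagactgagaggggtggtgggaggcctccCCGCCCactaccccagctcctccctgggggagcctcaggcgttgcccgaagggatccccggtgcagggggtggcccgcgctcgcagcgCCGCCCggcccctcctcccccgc
Ntn1, chr11:68399907-68400057: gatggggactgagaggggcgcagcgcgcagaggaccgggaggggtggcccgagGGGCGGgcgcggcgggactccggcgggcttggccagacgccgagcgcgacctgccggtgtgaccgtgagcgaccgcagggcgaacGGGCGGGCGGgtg
Ntng1, chr3:110142627-110142777: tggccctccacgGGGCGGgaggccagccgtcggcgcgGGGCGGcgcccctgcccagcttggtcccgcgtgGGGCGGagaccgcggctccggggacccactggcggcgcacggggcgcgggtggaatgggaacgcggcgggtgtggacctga
Sema6b, chr17:56133962-56134112: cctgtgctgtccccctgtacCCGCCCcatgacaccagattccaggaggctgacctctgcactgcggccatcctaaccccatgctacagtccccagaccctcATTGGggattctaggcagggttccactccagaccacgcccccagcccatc
Sema3f, chr9:107693534-107693684: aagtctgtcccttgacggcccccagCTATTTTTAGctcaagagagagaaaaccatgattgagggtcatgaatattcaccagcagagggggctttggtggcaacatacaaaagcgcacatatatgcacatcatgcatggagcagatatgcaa
The sequences of *Ntn1* and *Ntng1* held 3 GC boxes each and that of *Unc5a* held 2, whereas the *Neo1* sequence held a CCAAT and no GC box. The peak of *Sema3f* had 46.4% GC and held the MEF2 match alone.

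The other promoter peaks belonged to 8 further genes or to other TSSs of the same ones. *Sema3b* had a peak over its 5′ end (score 289.5, rank 387) and another 9 bp from a further coding TSS (166.5). *Sema4f* had a peak 24 bp downstream of its 5′ end (259.5), and *Ntn1* a further peak 12 bp downstream of a coding TSS that lies inside the gene (246.5, 13823 bp from the 5′ end). All 4 of these peaks ranked high in the gained list, between 387 and 1651. *Plxnd1*, the endothelial receptor of Sema3e, had a peak 2504 bp upstream of an internal TSS (189.5), and *Sema4a* a peak 84 bp downstream of one (145). *Plxna3* (91, 1610 bp) and *Plxnb1* (71, 152 bp), receptors of class 3 and class 4 semaphorins, followed with lower scores. The lowest scores of the set were those of *Sema4d* (56.5, 2998 bp), *Unc5c* (30, 2399 bp) and a further *Neo1* peak (29, 2690 bp), each next to an internal TSS of a non-coding transcript. For the promoter peaks of *Plxnd1*, *Sema4a*, *Plxna3* and *Sema3f*, too, the closest TSS of the gene was that of a non-coding transcript. With TSSs of protein-coding transcripts alone, 10 of the 14 genes kept a promoter peak. The background of 12.4% counts every annotated TSS, so it cannot be set beside this count.

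Score and GC content of the gained peaks were highest at the promoters. The 18 gained peaks that close to a start of their gene had a median score of 131.5 (29 to 567) and 65.3% ± 11.4 GC (SD over peaks). The 49 peaks at 3 to 50 kb had a median score of 79 and 56.8% ± 8.01 GC. The 46 peaks beyond 50 kb had a median score of 43.5 and 51.6% ± 3.98 GC. The rest of the gained list ran the same way by distance to the nearest protein-coding TSS, with median scores of 122 within 3 kb, 59 at 3 to 50 kb and 47 beyond. The 18 lost peaks had 48.9% ± 6.42 GC, against 50.5% ± 5.84 for the other lost peaks.

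**Figure D3:**
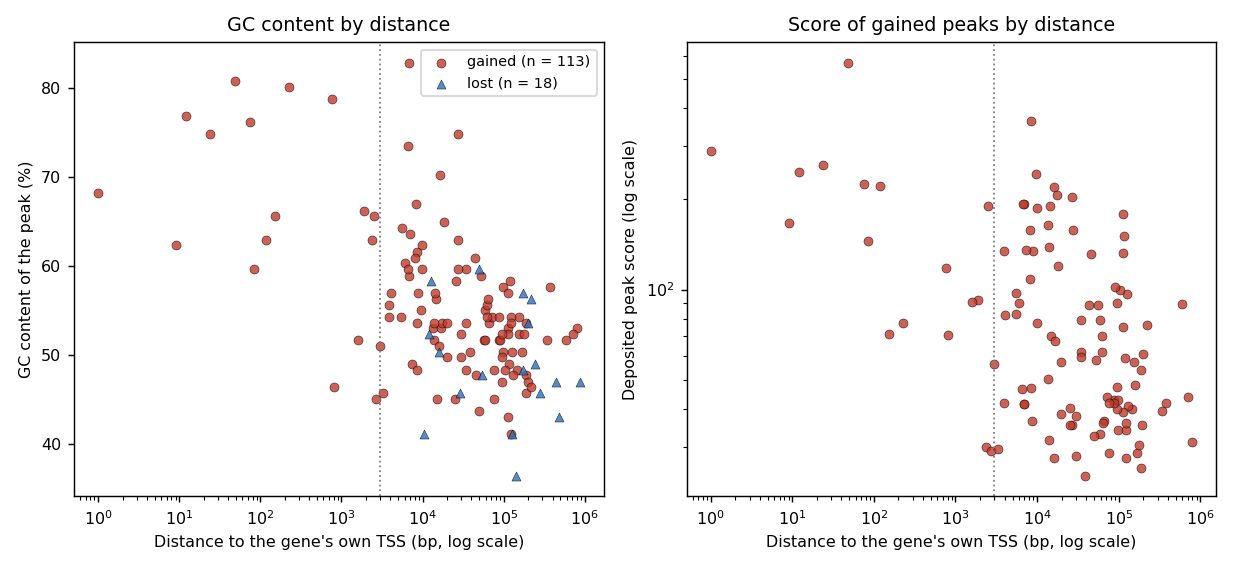
Points are peaks plotted by the distance to the nearest TSS of their gene (bp, log scale; the peak over a TSS is drawn at 1 bp, the dotted line is at 3 kb), with GC content on the left and the deposited score of the gained peaks on the right. Gained peaks (red) reach 80.8% GC and a score of 567 left of the line, and no lost peak (blue) stands there.

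The guidance genes differed from the rest of the lists in how far their peaks lay from a start site. Of their gained peaks, 40.7% were more than 50 kb from any protein-coding TSS, against 26.0% of the other gained peaks (difference 14.7 percentage points, 6.10 to 24.0). Of their lost peaks, 12 of 18 (66.7%) were that far, against 33.0% (difference 33.6 points, 10.6 to 50.8). Introns of any annotated gene held 45.1% of their gained peaks, against 32.9% of the others (difference 12.2 points, 3.34 to 21.5), and 16 of the 18 lost peaks (88.9%, against 46.8%). Inside the bodies of the guidance genes themselves lay 65 of the 113 gained and 12 of the 18 lost peaks. Promoters of any annotated gene held 28.3% of their gained peaks, close to the 30.9% of the others (difference -2.59 points, -10.1 to 6.36). The part of gene length in these shares was not tested. The scores themselves did not stand out, with 49.6% of gained peaks above the median score of the list, both here and in the rest.

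Among the class 3 semaphorins, 6 of 7 genes had gained peaks, 11 in all, and 0 of 7 had a lost peak. Their median body length was 156 kb, and among protein-coding genes of 100 kb or more 68.5% had a gained and 36.5% a lost peak. *Sema3b* (11.6 kb), *Sema3f* (29.0 kb) and *Sema3g* (12.5 kb) were shorter, and under 100 kb these shares were 33.4% and 7.47%. *Sema3f* had 4 gained peaks. Apart from the peak described above, 1 lay 13871 bp upstream (score 138.5), and the other 2, with scores of 134 and 157.5, lay past its 3′ end at the promoter of *Gnat1*, whose TSS was nearer. *Sema3g* had 2, the stronger of which (363.5, rank 143) lay 8491 bp upstream of its start but only 887 bp from that of *Tnnc1*, which encodes cardiac troponin C. The other *Sema3g* peak overlapped an exon 4050 bp into the gene (82.5). *Sema3a*, which repels axons through *Nrp1*, had a peak inside the gene 87981 bp from the closest TSS (43). *Sema3d* had an intronic peak (70) and *Sema3e* a peak 65376 bp upstream (36.5). *Sema3c*, known for its role in outflow tract septation, had no listed peak. In this family *Sema3b* and *Sema3f* were the genes with a gained peak at a TSS of their own.

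The class 4 to 7 semaphorins comprised 13 genes, of which 10 had 23 gained peaks and 2 had 3 lost peaks (backgrounds 37.4% and 10.8% over all lengths, median body length here 27.9 kb). *Sema5b*, a transmembrane semaphorin with thrombospondin repeats, had 5 gained peaks, 3 of them in its introns and none within 16 kb of a TSS of the gene, with scores of 62, 89, 35.5, 27.5 and 58.5. *Sema4d*, the ligand of *Plxnb1*, had 3 gained peaks, the strongest 14468 bp upstream of its start (189.5, rank 1246). *Sema6d*, known for chamber morphogenesis through *Plxna1*, had 3 gained peaks in introns 3 and 4 (54, 61 and 40) and a lost peak in intron 5, 12588 bp from a TSS (37.7, rank 1305 of 2745). *Sema6a*, a ligand of *Plxna2* and *Plxna4*, had no gained peak and 2 lost peaks, 198444 and 216633 bp upstream of the gene, with low scores of 17.8 and 20.1. *Sema7a*, the membrane-anchored ligand of *Plxnc1*, had 2 intronic gained peaks (77.5 and 57.5), *Sema4b* 2 upstream peaks (38 and 40.5) and *Sema5a* 1 (28). The peak of *Sema4g* covered a TSS of *Twnk* (164.5). Further peaks of *Sema4f* (41.5) and *Sema6b* (219.5) lay at the promoters of *M1ap* and *Plin5*. Such peaks met the 10 kb rule and were nearer to the start of another gene.

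In all, 11 of the 113 gained peaks and none of the 18 lost peaks had the nearest protein-coding TSS in another gene. For *Sema4g*, *Plxnb2*, *Ntn3* and *Ntn5* this held for every gained peak. Without these peaks 38 genes had a gained peak (77.6%). With a peak counted only for the gene with the nearest TSS, 31.1% of all protein-coding genes did.

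The plexins and neuropilins, the semaphorin receptors, had 32 gained and 3 lost peaks, and 10 of 11 genes had a gained peak (background 37.4%, and 68.5% for genes of 100 kb or more). *Nrp2*, the receptor of *Sema3f*, had 7 gained peaks with scores from 34 to 100. Of these, 4 lay 105003 to 219850 bp upstream, 2 in the gene and 1 downstream of it. Its 2 lost peaks lay farther upstream, at 241869 and 442830 bp, with scores of 26.9 and 18.3. Gained and lost peaks of *Nrp2* thus occupied separate stretches, and the closest pair was 21.9 kb apart. The upstream peaks of *Nrp2*, gained and lost, all lay in introns of other annotated genes. *Nrp1*, the receptor of *Sema3a*, had 5 gained peaks of low score (24 to 42), 3 of them upstream at 167713 to 376201 bp and 2 in introns 2 and 6. *Plxna4*, a receptor that joins the neuropilins, had 6 gained peaks and no lost peak. Its strongest peak (243, rank 677) was in intron 11, 9588 bp from an internal TSS, and 3 more lay close together in intron 3 (ranks 1953, 2463 and 9562). A peak elsewhere in intron 3 scored 96.5 and a peak 49508 bp upstream of the gene 32.5.

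*Plxna1* had 3 gained peaks, an intronic peak of score 90.5 and 2 peaks downstream of the gene (59 and 33). *Plxna2* had 3, which lay 590578 and 190657 bp upstream (89.5 and 35.5) and in intron 3 (59.5). *Plxnb1* had a further peak 16720 bp from a TSS (67.5). The peaks of *Plxnb2* scored 187 and 192 and lay at the promoter of *Mapk11*. *Plxnc1*, the receptor of *Sema7a*, had gained peaks 46127 and 99188 bp upstream (131.5 and 34) and a lost peak still farther upstream at 174177 bp (45.4, rank 857). *Plxnb3* had no peak. In *Nrp2* and in *Plxnc1* alike, each lost peak lay farther from the gene than the upstream gained peaks.

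The netrins had 13 gained peaks and 1 lost peak. *Ntn1* held 7 of the gained peaks, all between 6840 bp upstream of its start and 75690 bp downstream of it. Beside the pair at TSSs, they scored 134.5, 79, 62, 41.5 and 31.5, and the first of these lay 3880 bp upstream of the internal TSS. *Ntng2* had gained peaks in intron 2 (205.5, rank 1030) and 8101 bp upstream (108). Between them, in intron 1, lay a lost peak (63.5, rank 389 of 2745) which was the highest-ranked lost peak of all the guidance genes. *Ntng1* had a further gained peak in an intron (43). *Ntn3* (135.5) and *Ntn5* (83) had 1 gained peak each, nearer to the starts of *Tedc2* and *Sec1*. *Ntn4*, a basement membrane netrin, had none.

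The netrin receptors had 10 gained and 6 lost peaks, and a gained share of 62.5% (38.6 to 81.5), against 82.5% of the peaks of other genes. Without *Dcc*, left out after its values were seen, the share was 83.3% (10 of 12, 55.2 to 95.3). *Dcc*, the attractive netrin receptor and with 1097 kb the longest of the 49 genes, accounted for 4 of the lost peaks. They lay 29083 and 124889 bp from the TSS in intron 1 (21.6 and 41.6), in intron 12 (22) and 479961 bp upstream of the gene (33.5). Among the 21951 protein-coding genes, 45 had 4 or more lost peaks and 5 of these had no gained peak. *Unc5a* had, beside its promoter peak, a peak in intron 1, 6699 bp from the TSS (193, rank 1193) with 73.5% GC and a peak 64891 bp upstream (36). *Unc5b*, the endothelial member of the family, had a gained peak 13719 bp upstream (50.5) that consisted wholly of soft-masked repeat sequence. *Unc5c* had a lost peak in intron 1 (52, rank 607) and the weak gained peak described above, 316 kb away. *Unc5d* had a lost peak in intron 1 (24) and 2 gained peaks far downstream of the gene (31 and 44). *Neo1* had a further gained peak in intron 11 (35.5). *Unc5c* and *Unc5d* thus had both kinds of peak, *Unc5a*, *Unc5b* and *Neo1* gained peaks alone and *Dcc* lost peaks alone.

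The Slits had 17 gained and 2 lost peaks. *Slit3*, the member expressed widely outside the nervous system, had 10 gained peaks, a number reached by 55 of the protein-coding genes. Of these, 3 clustered 88477 to 96441 bp upstream of the gene (42, 40 and 90), and the other 7 lay in introns 3, 4, 12 and 20. Intron 4 held 4 of them, with scores of 102, 75, 36 and 178.5 (rank 1439 for the last), and the lost peak of *Slit3* (36.8, rank 1368) stood among them, 78.5 and 51.6 kb from its gained neighbours. *Slit1*, mainly a neural Slit, had 6 gained peaks and 1 lost peak, all in introns. The gained peaks scored 203.5 (rank 1049), 119.5, 97, 70, 42 and 38.5, and 4 of them lay 5540 to 26984 bp from the start. The lost peak (56.6, rank 512) was in intron 4, 13.5 kb from a gained peak, the shortest distance between a gained and a lost peak in these genes. *Slit2* had 1 gained peak 113267 bp upstream (39).

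**Figure D4:**
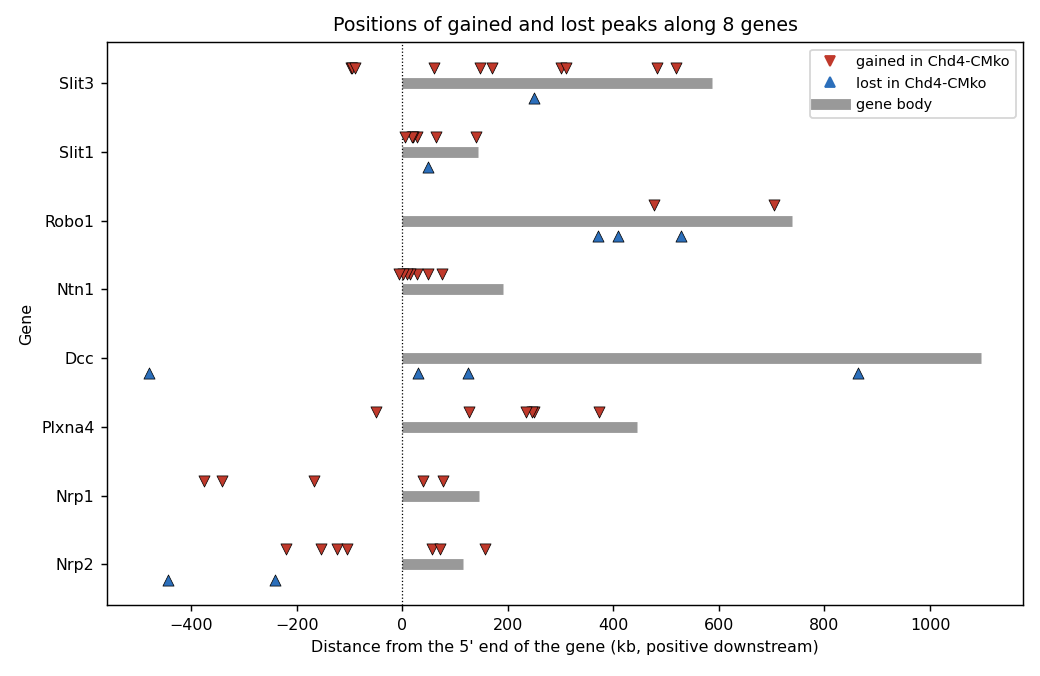
Triangles mark gained (red, above) and lost (blue, below) peaks by their distance from the 5′ end of the gene in kb, with the gene body as a grey bar, for the 6 genes with the most gained peaks other than *Sema5b*, and for *Dcc* and *Robo1* for their lost peaks. *Ntn1* has its peaks from just upstream of its start to 75690 bp into the gene, *Slit1* has peaks along its body, *Nrp2* has gained peaks upstream with the lost ones beyond them, and *Dcc* has blue triangles only.

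The Robos, receptors of the Slits, had 7 gained and 3 lost peaks. All 3 lost peaks were in *Robo1*, in introns 1 and 2, with scores of 21.2, 39.7 and 17.2. Its 2 gained peaks, in intron 2 (27.5) and over an exon near the 3′ end (46.5), lay to either side of the last of them, and neighbouring gained and lost peaks were 49.9 to 177 kb apart. *Robo2* had 3 gained peaks of low score (42, 25.5 and 30.5). *Robo3*, the divergent receptor of commissural axons, had a peak 27338 bp upstream (157.5) with 74.8% GC and another near the start of *Robo4* (47). The gained peaks of *Robo1* and *Robo2*, the receptors that bind Slits in the heart, all ranked in the lower part of the list, with ranks between 8610 and 12581 of 12991.

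Sequences of the strongest gained peaks away from promoters in *Plxna4*, *Slit1* and *Ntng2*, and of the lost peaks of *Slit1* and *Ntng2* that lie between gained ones, are printed in the same way, with the matches in capitals.
Gained in Plxna4, chr6:32215461-32215611: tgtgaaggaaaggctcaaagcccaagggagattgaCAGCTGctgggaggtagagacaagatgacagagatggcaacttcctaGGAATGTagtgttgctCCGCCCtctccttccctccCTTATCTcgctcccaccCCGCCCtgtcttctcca
Gained in Slit1, chr19:41716352-41716502: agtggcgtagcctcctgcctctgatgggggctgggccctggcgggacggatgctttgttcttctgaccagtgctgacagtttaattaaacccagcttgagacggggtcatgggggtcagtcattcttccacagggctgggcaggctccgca
Lost in Slit1, chr19:41693937-41694087: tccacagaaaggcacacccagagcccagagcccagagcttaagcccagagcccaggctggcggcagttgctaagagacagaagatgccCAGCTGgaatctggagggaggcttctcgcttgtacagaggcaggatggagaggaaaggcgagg
Gained in Ntng2, chr2:29222340-29222490: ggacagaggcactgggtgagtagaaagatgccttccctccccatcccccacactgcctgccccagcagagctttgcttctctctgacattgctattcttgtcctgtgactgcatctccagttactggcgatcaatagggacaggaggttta
Lost in Ntng2, chr2:29235998-29236148: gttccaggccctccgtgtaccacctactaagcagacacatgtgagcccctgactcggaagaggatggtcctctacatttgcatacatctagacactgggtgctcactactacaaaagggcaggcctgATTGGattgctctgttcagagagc
The *Plxna4* peak held 5 matches, among them the string of GATA factors (AGATAAG), that of TEAD factors (ACATTCC), the myogenic E-box (CAGCTG) and 2 GC boxes. The gained peaks of *Slit1* and *Ntng2* held no match to any of the 10 motifs, and their lost peaks held an E-box and a CCAAT.

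A difference between ligands and receptors was not resolved. Of 70 peaks of ligands 91.4% were gained and of 61 peaks of receptors 80.3%, a difference of 11.1 percentage points with an interval from -0.892 to 23.6. Without *Dcc*, left out after its values were seen, the share of the receptors was 86.0% (74.7 to 92.7).

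Counted over all distances, the motif shares of the gained peaks were close to those of the whole gained list. The NFY string CCAAT was found in 30.1% of the 113 peaks (22.4 to 39.1) and in 29.3% of all gained peaks. The GC box was found in 21.2% (14.7 to 29.7) and 22.5%. Split by the distance to the nearest protein-coding TSS, after the values were seen, it was found in 16 of 27 peaks within 3 kb (59.3%, against 46.0% of the other gained peaks, difference 13.3 points, -5.32 to 29.6). Beyond 50 kb it was found in 1 of 46 (2.17%, against 13.2%, difference -11.0 points, -13.2 to -1.79). The E-box was found in 12.4% and 13.2%, the NKX2 string CACTTNA in 8.85% and 6.87%, and the TBX string AGGTGT in 7.96% and 9.90%. GATA and TEAD were each found in 5.31%, against 5.45% and 3.76%, MEF2 in 4.42% against 3.26%, and AP-1 (TGANTCA) in 3.54% against 5.08%. CTCF was found in none of the 113 peaks (upper limit 3.29%) and in 0.285% of all gained peaks. Each interval over the 113 peaks included the share of the whole list. Of the 18 lost peaks, 5 held CCAAT (27.8%, 12.5 to 50.9), against 12.4% of all lost peaks, and 4 held the E-box (22.2%), against 15.4%. The lower limit for CCAAT thus lay just above the share of the whole lost list. The 10 motifs were read in both lists without a correction for their number. A match to a string is a description of the sequence, and matches of different motifs can overlap.

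Other genes of the guidance pathways were counted under the same rule, for which the background over all lengths was 37.4% for a gained and 10.8% for a lost peak. The lists used here, and the marker lists that follow, were also chosen with earlier results of these data known. Of 32 intracellular effectors and partners, 23 had a gained peak (71.9%) and 13 a lost peak, and 12 had a gained peak at a TSS of their own (37.5%, background 12.4%). Among the 18 effectors of 100 kb or more, 15 had a gained peak (83.3%, against 68.5% of protein-coding genes of that length) and 11 a lost peak (61.1%, against 36.5%). Among the 14 shorter ones, 8 had a gained peak (57.1%, against 33.4%) and 2 of 14 a lost peak (against 7.47%). *Mical3*, an oxidoreductase of the family that disassembles actin filaments, had 6 gained peaks, 3 of them at a TSS. *Fyn*, a kinase that acts in plexin signalling, had 4 gained and 3 lost peaks. *Srgap1* and *Srgap2*, GTPase-activating proteins that bind Robo, had 3 gained peaks each, with 1 and 2 lost peaks. Of 22 ephrins and Eph receptors, the other large family of guidance molecules, 13 had a gained peak (59.1%) and 7 a lost peak. Of the 14 under 100 kb 8 had a gained peak (57.1%, against 33.4%), and of the 8 longer ones 5 did (62.5%, against 68.5%). A lost peak was found for 2 of the 14 (against 7.47%) and for 5 of the 8 (62.5%, against 36.5%). *Efnb2* and *Epha4* had 9 gained peaks each.

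Marker genes of cell types in or near the heart were counted in the same way, with the same background. Of 8 genes per list, a gained peak was found for 7 neuronal and neural crest genes, 6 cardiomyocyte genes, 6 endothelial and endocardial genes, 5 epicardial and mesenchymal genes and 0 erythroid genes. In that order, a gained peak stood at a TSS of 4, 2, 1, 4 and 0 of the genes (background 12.4%), and lost peaks were found for 0, 1, 3, 5 and 5. The neuronal, cardiomyocyte, endothelial and epicardial lists held more gained than lost peaks (15 and 0, 8 and 3, 18 and 3, 10 and 7), as did the listed peaks as a whole, and the erythroid list held 0 gained and 12 lost peaks. The part of cell composition in the counts of the guidance genes was not tested. The lists hold differential peaks alone and do not show whether a marker gene was accessible in both genotypes.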

How the data were processed

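ATAC-seq was performed on 8 samples, 4 per genotype. Per the labels and the study's methods, the authors used BWA-MEM for alignment to mm10, HOMER (4.10.3) for peak calling with a fold-change limit, and ChIPseeker (1.20.0) for annotation. Read filters and the way samples were combined are not given in the sources used here, and both can change which peaks pass. The deposited value is a peak score per peak and list, whose scale is not stated. All columns of values were mapped to a group, and 0 were left unmapped.

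Peaks were read in mm10 coordinates with the GRCm38 sequence, the same build, and GENCODE M21. Distance was that from the peak interval to the TSS. Peaks no more than 3 kb from a TSS of any gene were classed as promoter, the others as 5′ UTR, 3′ UTR, exon, intron or intergenic, in that order. Introns were numbered in the protein-coding transcript of longest span. Consensus strings (10) were searched on both strands with 0 mismatches, MEF2 and CTCF as degenerate strings. Promoter sequences other than the peaks were not used. No test between genotypes was possible, so counts were set beside all 21951 protein-coding genes. Genes were named when they had a peak at a TSS, a lost peak or the most gained peaks (the top 6 with ties), and the rest by their counts and scores. The alternatives were the assignment rule, TSS set, score limit, repeat filter, promoter window and motif window. Assignment and motif search were checked on simulated data. Python 3.11.15, NumPy 2.4.6, pysam 0.24.0 and matplotlib 3.10.9 were used. The members and lists were chosen with earlier results of these data known.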

Additional observations from a re-analysis of the deposited data

How the results depend on the processing

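No paired analysis was possible because the lists carry no value per sample, so no replicate could be left out either. The 8 results were recomputed under up to 8 alternatives each, 52 values in all, of which 44 stayed within 1.5 times a count or within the interval of a share or mean. Keeping the part of each list at or above its median score left 56 gained and 8 lost peaks, as its construction implies, and raised the mean GC content of the gained peaks from 56.0 to 59.7% and their promoter share from 28.3 to 39.3%. A common limit at the median score of the WT list left 8 lost peaks and a gained share of 91.8%, and assumes that the lists share a scale. A promoter window of 1 kb gave a promoter share of 19.5%. The 5′ end alone, added after the data were seen, gave 8 genes with a promoter peak in place of 14. In a wider window centred on each peak, 3 motif shares of the gained peaks left their interval (NFY 41.6%, E-box 27.4% and AP-1 9.73%), and the whole gained list stood at 41.0, 22.8 and 9.32%. The lists limit every count to peaks that passed the authors' threshold in pooled or combined samples, and a gene without a listed peak may still have differed by less.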
